A study of Homo sapiens with 26 samples.

Results

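The 10 genes described here, ASNS, CHAC1, DDIT3, DDIT4, TRIB3, ATF3, ATF5, PSAT1, PHGDH and SESN2, are widely used readouts of ATF4, the transcription factor at the centre of the cellular response to amino acid shortage. They were chosen by symbol, as the rows of 3 count tables whose Ensembl identifier maps to one of these names, and they are 10 of 62778 genes listed in the tables together. All 10 were found in each table. Their RNA levels were followed through 26 RNA-seq libraries of 3 established human pancreatic ductal adenocarcinoma cell lines in which the nuclear receptor HNF4α had been induced or repressed.

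ATF4 acts in the integrated stress response. Kinases that sense uncharged tRNA, unfolded protein, haem shortage or viral RNA phosphorylate the initiation factor eIF2, general translation slows, and the ATF4 mRNA is translated more because of short upstream reading frames, so ATF4 activity is set largely by translation and not only by its mRNA. ATF4 then binds, often with a C/EBP partner, to composite elements in genes for amino acid synthesis, amino acid import and tRNA charging, and in genes for feedback and cell death such as DDIT3, which encodes CHOP. Pancreatic ductal tumours grow in poorly perfused tissue, and many of the same genes also answer to other inputs: DDIT4 to hypoxia and glucocorticoids, ATF3 to growth factor and stress kinase signals, and SESN2 and DDIT4 to p53.

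Panc10.05 and BxPC3 carried doxycycline-inducible constructs, and AsPC-1 (labelled ASPC1) carried CRISPR interference, which silences a promoter with a guide RNA. HNF4A is transcribed from a pair of promoters, P1 and P2. The induced groups are labelled P1-a2 and P2-a8 after a P1 and a P2 isoform of HNF4α, and the control groups are labelled NC, titled GFP in Panc10.05 and titled EV in BxPC3. Doxycycline was given to every induced-line group, controls included, at 500 ng/mL throughout BxPC3. In Panc10.05 the P2-a8 cells received 12.5 ng/mL, and 25 ng/mL was used for NC and P1-a2. Isoform and dose therefore changed together in Panc10.05 and cannot be told apart there. In AsPC-1 the groups are sgP1 (guides sgP1E and sgP1J), sgP2 (sgP2D and sgP2G), sgDual (sgDual2 and sgDual3, directed at both promoters) and a control guide, sgNC. Each group had 2 libraries except sgP1, sgP2 and sgDual, which had 4 each, 2 per guide. All cells were grown in RPMI-1640 medium with serum and a glutamine supplement. The labels do not say whether replicates came from separate cultures or whether a line was 1 clone, so p-values measure only the spread between these libraries.

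Library totals ran from 26079388 to 50662077 counts over the 3 tables, which were normalised separately. All 6 epithelial and ductal markers (EPCAM, CDH1, KRT7, KRT8, KRT18 and KRT19) averaged at least 1 CPM (counts divided by library size, with TMM scaling) in each line. The lowest of these means was that of KRT7 in AsPC-1, at 2.78 CPM. Of 12 leukocyte, fibroblast and endothelial markers, 2 reached that level in Panc10.05, 4 in BxPC3 and 2 in AsPC-1, the highest being LUM in AsPC-1 at 203 CPM. Fewer cells of a type and less RNA per cell cannot be told apart in such bulk samples.

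HNF4A, the manipulated gene, followed the labels. In Panc10.05 it was at 0.24 and 0.058 CPM in NC, 10.7 and 13 in P1-a2, and 37.6 in both P2-a8 libraries. In BxPC3 the values were 1.08 and 0.464 in NC, 9.76 and 11.6 in P1-a2, and 12.6 and 14.2 in P2-a8. AsPC-1 had 206 and 220 CPM in sgNC, 109 to 146 in sgP1, 76.7 to 93.9 in sgP2 and 3.19 to 13.6 in sgDual. The fall passed the threshold (adjusted p under 0.05 over all genes, edgeR's quasi-likelihood test) in sgDual (6.25e-06) and not in sgP1 (0.615) or sgP2 (0.0751). Still, no sgP1 or sgP2 library reached the sgNC range, and the test used 1 estimate of spread for all AsPC-1 groups, sgDual included.

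The element through which ATF4 and its C/EBP partners act has the core TGATGNAA. This core was searched on both strands in the 250 bases before each start site of RefSeq (GRCh38.p14), where all 10 genes matched, with 17 start sites among them. It was found for ASNS, CHAC1 and ATF3, 3 of 10 genes, and for 3.89% of 27305 genes in the table. The stretches are shown because they are the only matches in these windows, with the core in capitals and each read 5′ to 3′ on the strand of its gene. In CHAC1 the core lies on the opposite strand, so its capitals are the reverse complement.
ASNS: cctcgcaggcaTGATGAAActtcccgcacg
CHAC1: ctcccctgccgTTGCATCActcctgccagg
ATF3: aaaggtcaggaTGATGGAAggctgtcatat
The ASNS stretch is chr7:97872458-97872487 on the minus strand, with the core 68 bases before its start. That of CHAC1 is chr15:40953251-40953280 on the plus strand, 209 bases before its start, and that of ATF3 is chr1:212565205-212565234 on the plus strand, 191 bases before its start. In GENCODE v29 the ASNS and CHAC1 stretches lie inside the gene, since that annotation has transcripts starting further upstream, and the ATF3 stretch lies before it. The cAMP response element TGACGTCA was in 0 of 10 genes and in 2.03% of all genes. The letters CAAAGTCCA, an HNF4 motif, gave 0 of 10 genes against 0.403% of all genes. A match is a description of letters and not a binding site, and the absence of one says only that the letters are not in the window.

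Compared per kilobase of exon in the control groups, the genes of this set lay at very different levels. ATF5 (41.1 CPM per kb in Panc10.05 NC, 18 in BxPC3 NC and 14.9 in AsPC-1 sgNC), PSAT1 (35.2, 20.8 and 17.1 in the same order) and DDIT3 (30.6, 21.1 and 9.01) were high in all 3 lines. DDIT4 was the highest of the 10 in BxPC3 (65.1 CPM per kb) and AsPC-1 (36), and stood at 8.51 in Panc10.05. ASNS and CHAC1 were low throughout, ASNS at 1.03, 0.356 and 1.2 CPM per kb and CHAC1 between 0.745 and 3.2. PHGDH differed most between the lines, at 0.247 CPM per kb in Panc10.05, 7.52 in BxPC3 and 0 in AsPC-1. Levels set across lines come from tables normalised separately and carry no test.

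**Figure D1:**
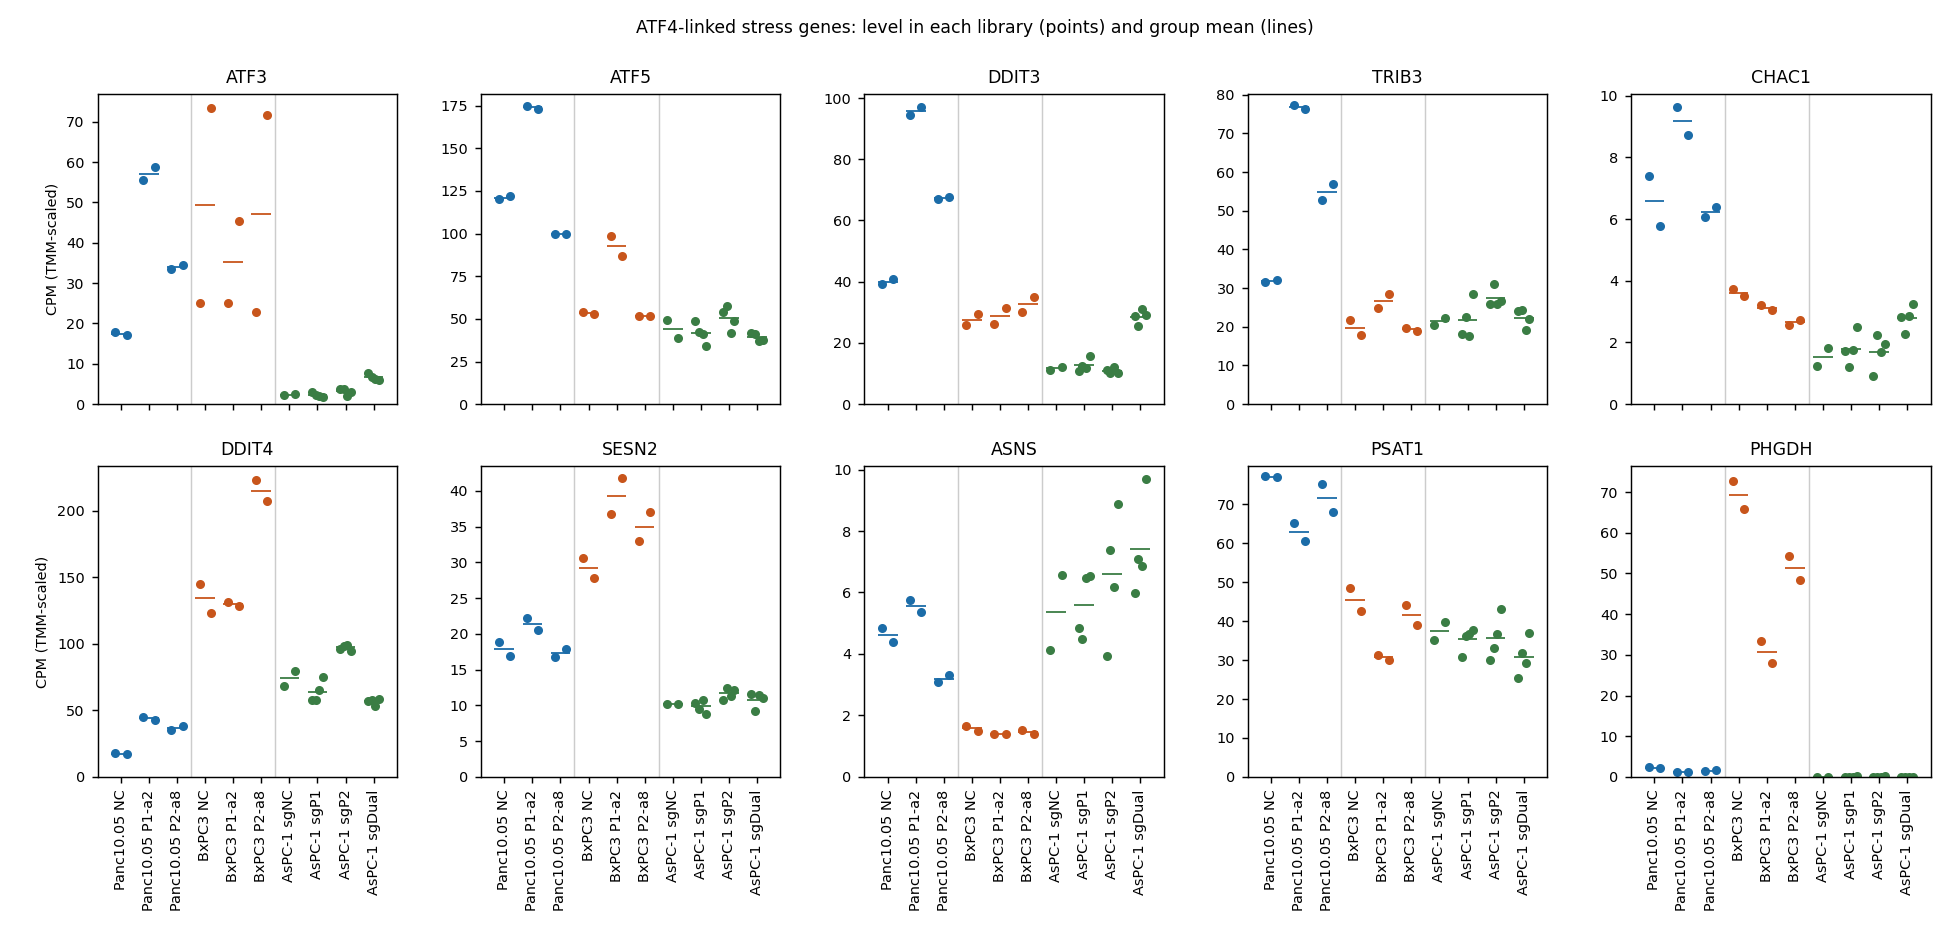
TMM-scaled CPM (vertical axis, linear, from 0) of the 10 genes in each of the 26 libraries (points), by group along the horizontal axis, with group means as lines; blue is Panc10.05, orange BxPC3 and green AsPC-1. ATF3, DDIT3, TRIB3 and DDIT4 stand apart from NC in both induced groups of Panc10.05, replicate 2 of each BxPC3 group is high for ATF3, and PHGDH is near 0 in AsPC-1.

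The genes did not move as a block. In Panc10.05, P1-a2 raised 7 of the 10 (CHAC1, DDIT3, DDIT4, TRIB3, ATF3, ATF5 and SESN2) and lowered PSAT1 and PHGDH, against 62% of all genes tested called in that comparison. P2-a8 raised 4 (DDIT3, DDIT4, TRIB3 and ATF3) and lowered 3 (ASNS, ATF5 and PHGDH), against 46.2% of all genes. Between the isoforms, 8 were higher with P1-a2 and PSAT1 was lower, where 46.9% of all genes were called. The HNF4A level differed between these groups too, at a mean of 11.8 CPM with P1-a2 and 37.6 with P2-a8. That level cannot be told apart from isoform or dose in this line. The median log2 fold change of the 10 was 0.49 for P1-a2 against NC, where that of all genes tested was 0.02, and -0.07 for P2-a8, where that of all genes was 0.00. With 9 and 7 of 10 genes called against 62% and 46.2%, the number of calls is read against a line in which a large part of the transcriptome moved.

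Fewer genes changed in BxPC3. P1-a2 raised TRIB3, ATF5 and SESN2 and lowered PSAT1 and PHGDH, 5 of 10 genes, with 32% of all genes called. P2-a8 raised DDIT4 and lowered PHGDH, 2 of 10, with 6.99% of all genes called. Between the isoforms, TRIB3 and ATF5 were higher and DDIT4, PSAT1 and PHGDH lower with P1-a2, where 22.5% of all genes were called. The median log2 fold change of the 10 was -0.11 for P1-a2 and -0.07 for P2-a8 against NC, beside medians of -0.01 and 0.01 over all genes.

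In AsPC-1, 9 of the 10 genes could be tested, since PHGDH did not pass the filter on low counts. None of the 9 was called for sgP1 against sgNC, where 0.265% of all genes were (45 genes, with 1516 at an unadjusted p under 0.05). The sgP1 group pools guides that differed from each other in 14.5% of all genes, and the count of 45 rose when either guide was left out. Of the 9, the unadjusted p from edgeR was under 0.05 for DDIT4 alone (0.0384), and DESeq2 called 0. DDIT4 rose in sgP2, as 1 of 9 genes with 3.42% of all genes called. In sgDual, CHAC1, DDIT3 and ATF3 rose and DDIT4 fell, 4 of 9 genes, with 35.6% of all genes called. The median log2 fold change of the 9 was 0.09 in sgDual and that of all genes 0.00. Set against each other, sgP2 differed from sgP1 in DDIT4 only (4.3% of all genes called). sgDual differed from sgP2 in 5 of the 9 (CHAC1, DDIT3 and ATF3 higher, DDIT4 and ATF5 lower, 46.4% of all genes called) and from sgP1 in 3 (CHAC1, DDIT3 and ATF3 higher, 38.3% of all genes called).

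**Figure D2:**
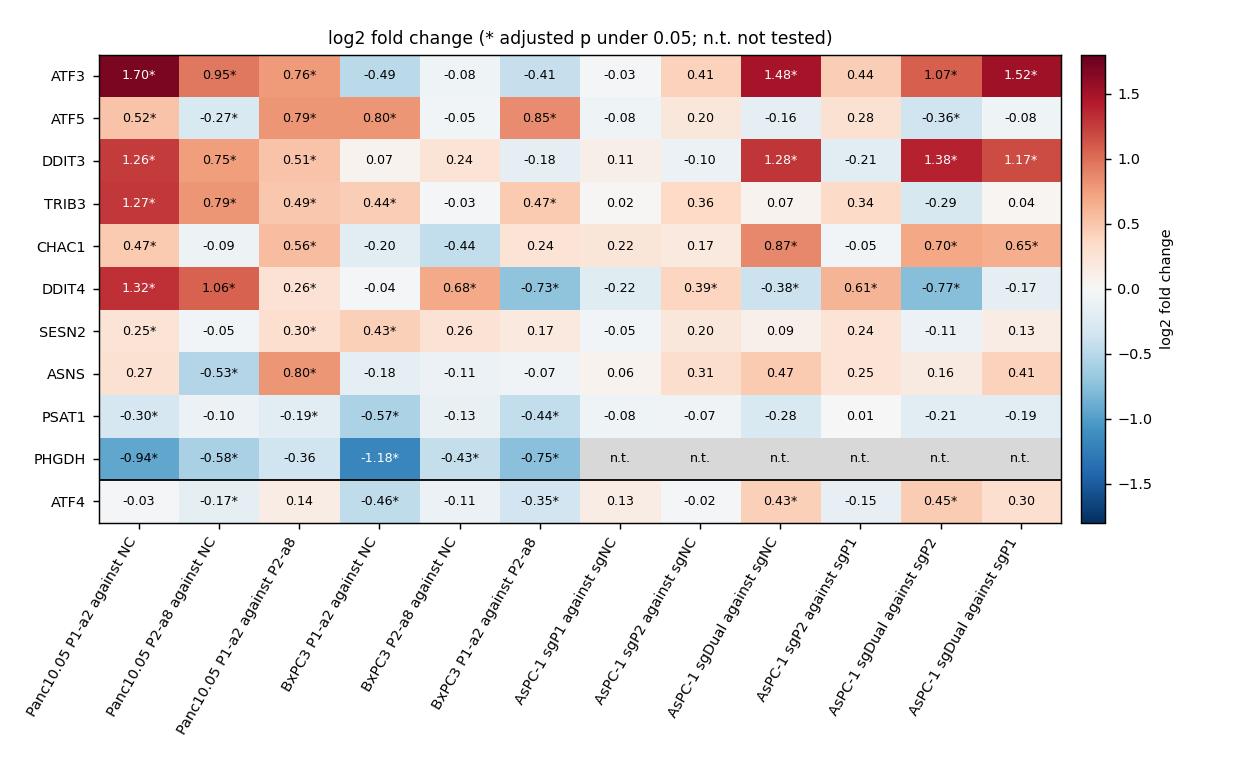
Log2 fold change of each of the 10 genes and of ATF4 (rows) in 12 comparisons between groups of 1 line (columns), from red for higher in the first group to blue for lower; a star marks an adjusted p under 0.05 and n.t. a gene not tested. DDIT3 and ATF3 are red in Panc10.05 and again in the 3 sgDual columns, and DDIT4 is red for sgP2 and blue for sgDual against sgNC.

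The ATF4 mRNA itself was called lower in Panc10.05 P2-a8 and BxPC3 P1-a2, was called higher in sgDual, and was not called in the other groups set against their controls. In Panc10.05 it was at 265 and 291 CPM in NC and at 273 and 270 in P1-a2, a log2 fold change of -0.03 (adjusted p = 0.63, SE 0.06). With P2-a8 it was slightly lower, at 243 and 250 CPM (log2 fold change -0.17, adjusted p = 0.0151), a call that was lost in several fits without 1 library, with adjusted p up to 0.203. In BxPC3 it fell with P1-a2, from 289 and 320 CPM to 206 and 236 (log2 fold change -0.46, adjusted p = 0.00206, SE 0.08). AsPC-1 sgDual had 201 to 258 CPM against 147 and 192 in sgNC, a log2 fold change of 0.43 with an adjusted p of 0.0476, which lay above the threshold in several alternatives, at up to 0.428. No measure of ATF4 protein or of translation is part of these data.

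Among the transcription factors downstream of ATF4, ATF3 encodes a bZIP protein that represses or activates stress genes and is induced early by many insults. In Panc10.05 it stood at 17.8 and 17.2 CPM in NC, at 55.5 and 58.7 in P1-a2 and at 33.4 and 34.4 in P2-a8. The 3 groups did not overlap. The log2 fold change against NC was 1.70 (adjusted p = 1.51e-22, SE 0.08) for P1-a2, the largest of the 10 genes in that comparison, and 0.95 (adjusted p = 1.88e-13, SE 0.08) for P2-a8. P1-a2 exceeded P2-a8 by 0.76 (adjusted p = 1.23e-11, SE 0.07).

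In BxPC3, ATF3 split by replicate and not by group. It was at 25.1 CPM in replicate 1 and 73.4 in replicate 2 of NC, at 25.1 and 45.4 in P1-a2, and at 22.8 and 71.7 in P2-a8. Replicate 2 was the higher library in each group, and the SE of the log2 fold change was 0.93 for P1-a2 and 0.92 for P2-a8 against NC. At that spread, neither -0.49 (adjusted p = 0.752) nor -0.08 (adjusted p = 0.977) passed the threshold. In AsPC-1, ATF3 was scarce, at 2.19 and 2.57 CPM in sgNC, 1.78 to 2.93 in sgP1 and 2.1 to 3.75 in sgP2. All 4 sgDual libraries lay above every other library of the line, at 5.88 to 7.84 CPM. The log2 fold change in sgDual against sgNC was 1.48 (adjusted p = 0.00028, SE 0.24).

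DDIT3 encodes CHOP, a C/EBP-family factor that promotes cell death under lasting stress. In Panc10.05 its level was 39.1 and 40.9 CPM in NC, 94.3 and 97.1 in P1-a2 and 67.1 and 67.6 in P2-a8, again in 3 separate ranges. The log2 fold change against NC was 1.26 (adjusted p = 2.85e-20, SE 0.07) with P1-a2 and 0.75 (adjusted p = 1.41e-12, SE 0.07) with P2-a8. In BxPC3, the libraries of NC (25.8 and 29.3 CPM), P1-a2 (26.3 and 31.5) and P2-a8 (30.2 and 35.1) lay close together, with log2 fold changes of 0.07 (SE 0.11) and 0.24 (SE 0.11) that did not pass the threshold.

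In AsPC-1, DDIT3 rose in sgDual alone among the groups set against sgNC. Its level was 11.3 and 12.2 CPM in sgNC, 10.9 to 15.6 in sgP1, 10.2 to 12.2 in sgP2 and 25.5 to 31 in sgDual. Its log2 fold change was 1.28 (adjusted p = 7.58e-06, SE 0.13) against sgNC. The difference from sgP1 was 1.17 (SE 0.10) and that from sgP2 1.38 (SE 0.11), both past the threshold, so sgDual stood apart from each single-promoter group by direct test. DDIT3 (chr12:57516588-57521737, minus strand, GENCODE v29) overlaps MARS1 and MBD6 on the opposite strand, and the strand setting of the counting is not given in the sources used here. In Panc10.05 P1-a2, MARS1 fell by 0.79 and MBD6 fell by 0.37 on the log2 scale while DDIT3 rose. In sgDual, MBD6 rose by 0.54 (adjusted p = 0.000681) and MARS1 changed by 0.09 (adjusted p = 0.495). Whether reads of these neighbours entered the DDIT3 counts was not tested.

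ATF5, a further bZIP factor that is controlled by upstream reading frames like ATF4 and is known for the mitochondrial stress response, separated the isoforms in both induced lines. Panc10.05 had 120 and 122 CPM in NC, 175 and 173 in P1-a2 and 100 in both P2-a8 libraries. It thus rose with P1-a2 (log2 fold change 0.52, adjusted p = 4.72e-10, SE 0.06) and fell with P2-a8 (-0.27, adjusted p = 0.000197, SE 0.06). BxPC3 had 53.8 and 52.8 CPM in NC, 98.6 and 87 in P1-a2 and 51.6 and 51.5 in P2-a8. P1-a2 lay apart from the other groups at a log2 fold change of 0.80 against NC (adjusted p = 8.16e-06, SE 0.07), and P2-a8 differed from NC by -0.05 (adjusted p = 0.774, SE 0.07). P1-a2 exceeded P2-a8 by 0.79 in Panc10.05 and by 0.85 in BxPC3, with SE 0.06 and 0.07.

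In AsPC-1, ATF5 ranged from 34.1 to 57.4 CPM with overlap between every group and sgNC. It was lower in sgDual than in sgP2 (log2 fold change -0.36, adjusted p = 0.0171), a call lost without guide sgP2G (adjusted p = 0.136), guide sgDual2, guide sgDual3 or sgP2G replicate 1. ATF5 (chr19:49928702-49933935, plus strand) overlaps NUP62 and IL4I1 on the opposite strand. NUP62 fell by 0.52 in Panc10.05 P1-a2 on the log2 scale and changed by 0.12 in BxPC3 P1-a2 (adjusted p = 0.171). IL4I1 was at 0.532 CPM or less in Panc10.05, and fell from 3.14 to 1.22 CPM with P1-a2 in BxPC3.

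TRIB3 encodes a pseudokinase that binds ATF4 and CHOP and dampens AKT signalling, and is a feedback target of the pathway. Its level in Panc10.05 was 31.6 and 32 CPM in NC, 77.3 and 76.2 in P1-a2 and 52.9 and 56.9 in P2-a8. Log2 fold changes were 1.27 (adjusted p = 8.97e-20, SE 0.07) and 0.79 (adjusted p = 1.5e-12, SE 0.07), and the difference between the isoforms was 0.49 (SE 0.07). In BxPC3 the P1-a2 libraries (24.9 and 28.5 CPM) lay above those of NC (21.7 and 17.9) and P2-a8 (19.7 and 19). The rise of 0.44 (adjusted p = 0.00987, SE 0.11) was lost without P1-a2 replicate 2 (adjusted p = 0.0866) or NC replicate 2 (adjusted p = 0.126).

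In AsPC-1, TRIB3 differed between the guides of 1 target. The sgP1J libraries were at 22.6 and 28.4 CPM and the sgP1E libraries at 18.2 and 17.6, with 20.5 and 22.3 in sgNC between them. That guide difference was 0.51 (adjusted p = 0.0169, SE 0.13), the only call among the 9 genes in that comparison, where 14.5% of all genes were called. It was lost when only those guides were fitted (adjusted p = 0.0798) and without sgP1E replicate 1 (0.0635), sgP1E replicate 2 (0.0767) or sgP1J replicate 2 (0.151). None of the 9 genes was called between sgP2G and sgP2D (1.69% of all genes) or between sgDual3 and sgDual2 (0.883% of all genes). In those comparisons the unadjusted p was under 0.05 for ASNS alone (0.0344) and for PSAT1 alone (0.0342) by edgeR, and DESeq2 called 0 in each. The sgP2 libraries held 25.8 to 31 CPM of TRIB3, all above sgNC, with a log2 fold change of 0.36 (adjusted p = 0.266, SE 0.16), and sgDual held 19.2 to 24.3.

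DDIT4, SESN2 and CHAC1 are effectors that slow growth or alter redox state. DDIT4 encodes REDD1, an inhibitor of mTORC1, and it moved in both directions across the lines. In Panc10.05 it was at 17.8 and 17.2 CPM in NC, 45.3 and 42.5 in P1-a2 and 35.5 and 37.9 in P2-a8. Its log2 fold change was 1.32 (adjusted p = 2.24e-18, SE 0.08) for P1-a2 and 1.06 (adjusted p = 1.2e-14, SE 0.08) for P2-a8. In BxPC3, P2-a8 alone stood apart, at 223 and 207 CPM against 145 and 123 in NC and 131 and 128 in P1-a2. P2-a8 raised it by 0.68 (adjusted p = 0.000311, SE 0.08), and P1-a2 differed from NC by -0.04 (adjusted p = 0.707, SE 0.08). P1-a2 was lower than P2-a8 by direct test (log2 fold change -0.73, SE 0.08), where in Panc10.05 it was higher (0.26, adjusted p = 0.00381, SE 0.07, with adjusted p = 0.0655 without P1-a2 replicate 1 and 0.101 without P2-a8 replicate 1).

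In AsPC-1, DDIT4 ran in opposite directions with the P2 guides and the dual guides. The sgP2 libraries held 94.9 to 99.4 CPM, sgNC 68.6 and 79.5, sgP1 57.5 to 74.8 and sgDual 53.5 to 58.3. Every sgP2 library was above, and every sgDual library below, both sgNC libraries. Against sgNC, the rise in sgP2 was 0.39 (adjusted p = 0.0389, SE 0.10) and the fall in sgDual -0.38 (adjusted p = 0.00589, SE 0.10). The sgP2 call did not survive the loss of any 1 library or of either guide, with adjusted p up to 0.386 (without sgNC replicate 1). The sgDual call was lost without sgNC replicate 2 (0.116) or guide sgDual2 (0.0526). The direct contrasts did not rest on sgNC, and both that involve sgP2 were called. There sgP2 exceeded sgP1 by 0.61 (adjusted p = 0.000673, SE 0.08), and sgDual was below sgP2 (log2 fold change -0.77, adjusted p = 2.22e-06, SE 0.08). DDIT4 was not called between sgDual and sgP1, whose ranges overlapped, so the call of a fall in sgDual rests on sgNC or sgP2. DDIT4 (chr10:72273920-72276036, plus strand) overlaps an antisense gene, DDIT4-AS1, and its reads may not be separated from it.

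SESN2 encodes sestrin 2, a leucine sensor that restrains mTORC1. Panc10.05 had 18.9 and 16.9 CPM in NC, 22.2 and 20.5 in P1-a2 and 16.8 and 17.9 in P2-a8. The rise with P1-a2 was 0.25 (adjusted p = 0.0155, SE 0.09) and was lost without P1-a2 replicate 1 (0.124) or NC replicate 2 (0.169). In BxPC3 the order was NC (30.6 and 27.8 CPM), P2-a8 (33 and 37) and P1-a2 (36.8 and 41.8), and the induced groups overlapped each other. P1-a2 rose by 0.43 (adjusted p = 0.00408, SE 0.09), while P2-a8 differed by 0.26 (adjusted p = 0.13, SE 0.09, and adjusted p = 0.0381 with no filter on low counts). In AsPC-1, SESN2 lay between 8.81 and 12.4 CPM and no contrast between groups passed the threshold.

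CHAC1 encodes an enzyme that degrades glutathione. It was low in every line. Panc10.05 had 7.4 and 5.77 CPM in NC, 9.63 and 8.72 in P1-a2 and 6.07 and 6.4 in P2-a8. P1-a2 was higher than NC by 0.47 (adjusted p = 0.00145, SE 0.13, and adjusted p = 0.0722 without NC replicate 2) and higher than P2-a8 by 0.56 (adjusted p = 0.000334, SE 0.13). BxPC3 had 2.57 to 3.72 CPM over its 6 libraries with NC the highest group, and no contrast passed the threshold. In AsPC-1, CHAC1 was at 1.24 and 1.83 CPM in sgNC, 1.2 to 2.49 in sgP1, 0.928 to 2.25 in sgP2 and 2.27 to 3.24 in sgDual. The sgDual rise of 0.87 (adjusted p = 0.0443, SE 0.32) had an adjusted p of up to 0.341 (without sgNC replicate 1). It was above the threshold without either sgNC library, without 3 of the sgDual libraries in turn and without either dual guide. The sgDual differences from sgP2 (0.70, adjusted p = 0.0307) and sgP1 (0.65, adjusted p = 0.0475) were lost as readily, with adjusted p up to 0.221 (without guide sgP2D) and 0.166 (without guide sgDual2).

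None of the biosynthetic enzymes was called higher against a control group, though ASNS was higher with P1-a2 than with P2-a8 in Panc10.05. PHGDH and PSAT1 catalyse the first steps of serine synthesis, and ASNS makes asparagine from aspartate and glutamine. PHGDH fell in both induced lines. In BxPC3 it was at 72.7 and 65.9 CPM in NC, 33.3 and 27.9 in P1-a2 and 54.2 and 48.3 in P2-a8, in 3 separate ranges. Its log2 fold change was -1.18 (adjusted p = 6.38e-06, SE 0.10) for P1-a2 and -0.43 (adjusted p = 0.0177, SE 0.09) for P2-a8, and P1-a2 was below P2-a8 (-0.75, SE 0.10). The P2-a8 call was lost without NC replicate 1 (0.107) or P2-a8 replicate 2 (0.074).

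In Panc10.05, PHGDH was near the lower limit of use, at 2.35 and 2.2 CPM in NC, 1.23 and 1.15 in P1-a2 and 1.37 and 1.72 in P2-a8. The P1-a2 change was -0.94 (adjusted p = 0.000516, SE 0.23). The P2-a8 change was -0.58 (adjusted p = 0.0316, SE 0.22), with adjusted p = 0.137 by DESeq2, 0.0541 with no filter on low counts and 0.283 without P2-a8 replicate 1. In AsPC-1, PHGDH had between 0 and 3 counts in every library, at or under the floor of 3 counts in all 4 groups, and no fold change is given.

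PSAT1 fell with P1-a2. It was at 77.2 and 77 CPM in Panc10.05 NC, 65.1 and 60.5 in P1-a2 and 75.3 and 68.1 in P2-a8. Its log2 fold change was -0.30 (adjusted p = 0.000181, SE 0.07) for P1-a2 and -0.10 (adjusted p = 0.217, SE 0.07) for P2-a8. In BxPC3 the P1-a2 libraries (31.3 and 30.1 CPM) lay below those of NC (48.5 and 42.6) and P2-a8 (44.1 and 39.1), with a log2 fold change of -0.57 against NC (adjusted p = 0.000505, SE 0.09). Between isoforms, P1-a2 was lower by direct test in both lines, at -0.19 in Panc10.05 (adjusted p = 0.0155, and 0.219 without P2-a8 replicate 1) and -0.44 in BxPC3 (adjusted p = 0.00442). AsPC-1 ranged from 25.5 to 43 CPM with overlap between all groups.

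ASNS, a classical amino acid response gene, was called against a control group only in Panc10.05 P2-a8, where it fell, as ATF5 did. In Panc10.05 it was at 4.83 and 4.38 CPM in NC, 5.75 and 5.35 in P1-a2 and 3.1 and 3.3 in P2-a8. The P1-a2 libraries were both above NC, with a log2 fold change of 0.27 (adjusted p = 0.113, SE 0.15). P2-a8 was lower than NC (-0.53, adjusted p = 0.00488, SE 0.16, and adjusted p = 0.065 without NC replicate 1), and the isoforms differed by 0.80 (adjusted p = 3.13e-05, SE 0.15). In BxPC3 all libraries lay between 1.38 and 1.67 CPM. In AsPC-1 the libraries of 1 group were spread widely, from 4.12 to 6.58 CPM in sgNC and 3.94 to 8.88 in sgP2, and sgDual (5.97 to 9.69) differed from sgNC by 0.47 with an SE of 0.29 (adjusted p = 0.235). ASNS (chr7:97852118-97872542, minus strand) overlaps AC079781.5 on the same strand and a processed pseudogene, AC005326.1, on the opposite strand, and whether reads were shared with them was not tested.

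The response to induction differed between Panc10.05 and BxPC3 for several genes when the difference itself was tested in a joint fit of their 12 libraries. For P1-a2 against NC, CHAC1, DDIT3, DDIT4, TRIB3 and PSAT1 had the higher log2 fold change in Panc10.05 and ATF5 the lower, 6 of 10 genes, where 36.4% of all genes were called. DDIT4 differed most (1.38, adjusted p = 5.28e-10, SE 0.11), followed by DDIT3 (1.21, adjusted p = 7.13e-08, SE 0.12) and TRIB3 (0.84, adjusted p = 5.63e-06, SE 0.12). ATF3 had a larger difference, 2.21, but its SE was 0.97 (adjusted p = 0.134, and 0.0427 by DESeq2). A replicate block called it as well, though the labels do not pair replicate numbers. For P2-a8 against NC, DDIT3, DDIT4 and TRIB3 had the higher log2 fold change in Panc10.05, 3 of 10 genes, where 23.5% of all genes were called. The log2 fold change of P1-a2 against P2-a8 was higher in Panc10.05 for ASNS, DDIT3 and DDIT4, 3 of 10, with 22.3% of all genes called. For DDIT4 the direction was reversed, with P1-a2 above P2-a8 in Panc10.05 and below it in BxPC3. PHGDH, which fell with both isoforms in both lines, differed between the lines by 0.25 (adjusted p = 0.404, SE 0.21) for P1-a2 and -0.15 (adjusted p = 0.671, SE 0.20) for P2-a8. The lines also differed in doxycycline dose and in the control construct, which cannot be told apart from the line. With P2-a8 the same holds for the HNF4A level reached, a mean of 37.6 CPM in Panc10.05 and 13.4 in BxPC3. With P1-a2 that level was close, at 11.8 and 10.7 CPM, in tables normalised separately.

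**Figure D3:**
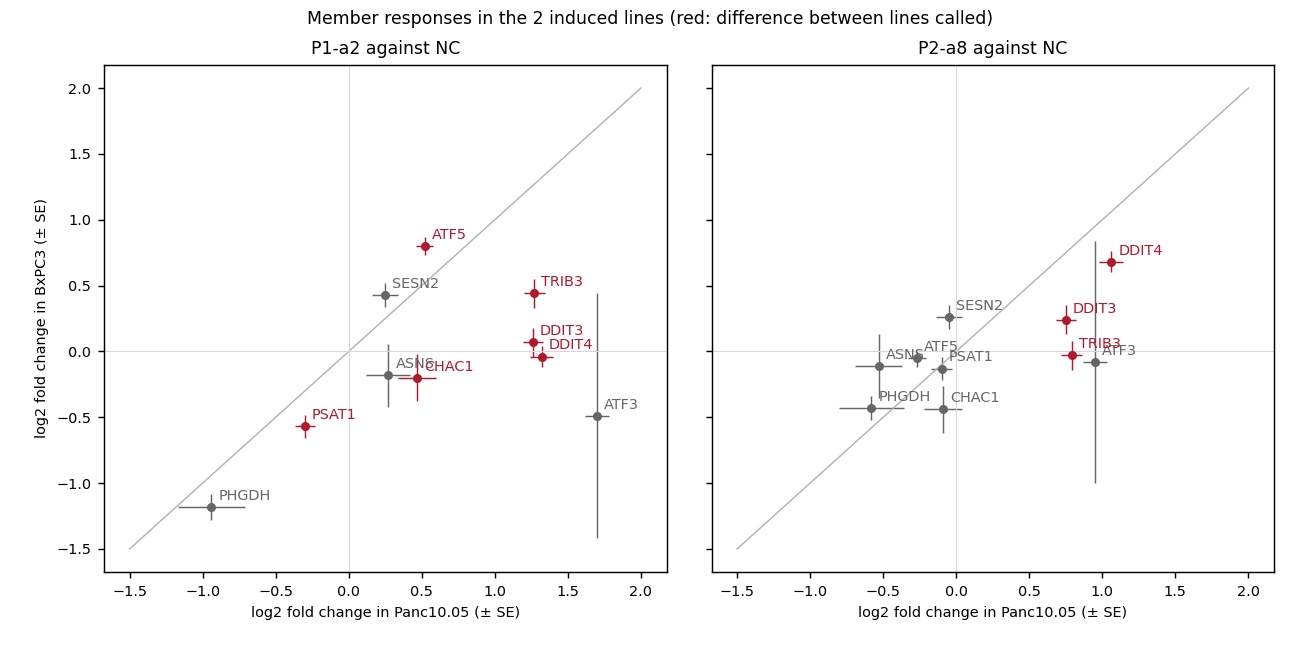
Log2 fold change against NC in Panc10.05 (horizontal) and BxPC3 (vertical) for P1-a2 (left) and P2-a8 (right), each point 1 gene with bars of 1 SE in each direction and the diagonal marking equal change; red marks a difference between the lines with an adjusted p under 0.05. For P1-a2, DDIT3 and DDIT4 sit far below the diagonal with BxPC3 values of 0.07 and -0.04, while PHGDH is low in both lines.

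The wider pathway was described with 9 lists of 148 genes in all, written from general knowledge of the field. A share of calls near that of all genes is no result about a list, so the share stands beside the counts. Of the regulators of the integrated stress response, 8 of 17 tested rose and 5 fell with P1-a2 in Panc10.05, where 62% of all genes were called, 5434 higher and 5265 lower. PPP1R15A, which encodes GADD34, the subunit that directs dephosphorylation of eIF2, rose from 268 to 536 CPM (log2 fold change 1.00, SE 0.06). In AsPC-1 sgDual, 4 of 17 rose and 4 fell (35.6% of all genes called). PPP1R15A was higher there (28.8 to 44.9 CPM, log2 fold change 0.64, adjusted p = 0.000902), and EIF2B5, a subunit of the exchange factor for eIF2, was lower (-0.49). In BxPC3 P1-a2, where 32% of all genes were called, 3 of 18 rose and 5 fell, among them EIF2AK2, which encodes the RNA-sensing kinase PKR (-0.60, adjusted p = 3.42e-05).

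Of the amino acid transporters, 9 of 14 tested rose and 2 fell with P1-a2 in Panc10.05 (median 0.52, that of all genes 0.02), where 62% of all genes were called. In BxPC3, 9 of 15 rose and 1 fell, SLC7A11, with P1-a2 (median 0.31, that of all genes -0.01), where 32% of all genes were called. SLC7A5, the large neutral amino acid transporter LAT1, went from 168 to 391 CPM in Panc10.05 and from 494 to 841 in BxPC3. Its partner chain SLC3A2 rose by 0.90 in Panc10.05, and the LAT2 transporter SLC7A8 rose by 1.38 in BxPC3. With P2-a8, 7 of 14 rose and 2 fell in Panc10.05 (46.2% of all genes called), and 4 of 15 rose in BxPC3 (6.99% of all genes called). In sgP2, SLC7A11, the cystine importer, rose from 71.6 to 173 CPM (log2 fold change 1.27, adjusted p = 0.00791, SE 0.22), a call lost without sgNC replicate 1 (0.125) or sgNC replicate 2 (0.118). It was also higher in sgP2 than in sgP1, where its mean was 87.5 CPM (log2 fold change 0.98, adjusted p = 0.0064, SE 0.17). In sgDual, 3 of 15 rose and 1 fell, SLC7A5 (-0.64, adjusted p = 0.00632, and 0.125 without sgNC replicate 1 or 0.063 without guide sgDual2).

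Of the other serine, proline and one-carbon enzymes, 4 of 16 rose and 5 fell in Panc10.05 P1-a2 (62% of all genes called), and 2 of 16 rose and 5 fell in BxPC3 P1-a2 (32% of all genes called). BCAT1, a branched-chain aminotransferase, rose in Panc10.05 from 22.5 CPM in NC to 63.5 with P1-a2 and 63.6 with P2-a8. PCK2, which encodes mitochondrial phosphoenolpyruvate carboxykinase, fell by 0.76 with P1-a2 and fell by 0.74 with P2-a8 on the log2 scale. Among the cytosolic tRNA synthetases, 9 of 20 rose and 5 fell in Panc10.05 P1-a2, where 62% of all genes were called, with KARS1 (1.19) and AARS1 (0.99) up and MARS1 (-0.79) down. In sgDual, 1 of 20 rose and 8 fell, with FARSB at -0.71, where 35.6% of all genes were called. That sgDual count dropped from 9 to 1 without sgNC replicate 1 and to 4 without guide sgDual2.

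Of the other ATF4-linked stress genes, 11 of 16 tested rose and 1 fell in sgDual, where 35.6% of all genes were called, with a median log2 fold change of 0.69 where that of all genes was 0.00. GDF15, a secreted stress cytokine, went from 6.24 to 34.8 CPM (log2 fold change 2.48, adjusted p = 0.00562, SE 0.57, and adjusted p = 0.0879 without sgNC replicate 1). SLFN5 rose by 2.15 and WIPI1, an autophagy gene, by 1.76. In Panc10.05 P1-a2, 8 of 17 rose and 7 fell (62% of all genes called), with a median of -0.14. VEGFA, the angiogenic growth factor, rose from 51.5 to 219 CPM (log2 fold change 2.09, adjusted p = 4.27e-27, SE 0.07), and GDF15 rose by 1.27. In BxPC3 P1-a2, 4 of 17 rose and 5 fell (32% of all genes called). In sgP1 edgeR called 0 genes of the 9 lists, with 12 at an unadjusted p under 0.05, and DESeq2 called 1.

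Several of the 10 genes are also targets of other pathways, and lists for those are given here, to be read against the same shares of all genes called: 62% and 46.2% in Panc10.05 P1-a2 and P2-a8, 32% and 6.99% in BxPC3, and 35.6% in sgDual. Hypoxia genes rose in 10 of 11 tested with P1-a2 and in 9 of 11 with P2-a8 in Panc10.05, the groups in which DDIT4 rose. In BxPC3, 8 of 11 rose with P1-a2, in which DDIT4 did not change beyond its error, and 3 of 11 with P2-a8, in which DDIT4 rose. In sgDual 2 rose and 2 fell, with CA9, a classical hypoxia marker, dropping from 66.5 to 11.2 CPM. Immediate early genes, which like ATF3 answer to growth factor and stress kinase signals, rose in 8 of 12 in Panc10.05 P1-a2 (DUSP5, 123 to 671 CPM) and in 6 of 12 in sgDual (FOSB, 3.72 to 12.3 CPM), with 3 and 0 lower. In BxPC3 P1-a2, 1 of 12 rose and 2 fell, a count of 3 that depended on the fit. It became 5 by DESeq2 and 11 with a replicate block, though the labels do not pair replicate numbers. Genes of the p53 pathway rose in 8 of 12 in BxPC3 P1-a2 (CDKN1A, 198 to 570 CPM), the group in which SESN2 rose most, and in 5 of 12, with 6 lower, in Panc10.05 P1-a2. Endoplasmic reticulum chaperones, which report the ATF6 and XBP1 arms of the unfolded protein response, fell in 9 of 19 and rose in 4 of 19 in Panc10.05 P1-a2, where DDIT3 rose, and fell in 7 and rose in 4 in sgDual. The part of these other pathways in the change of the 10 genes was not tested.

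**Figure D4:**
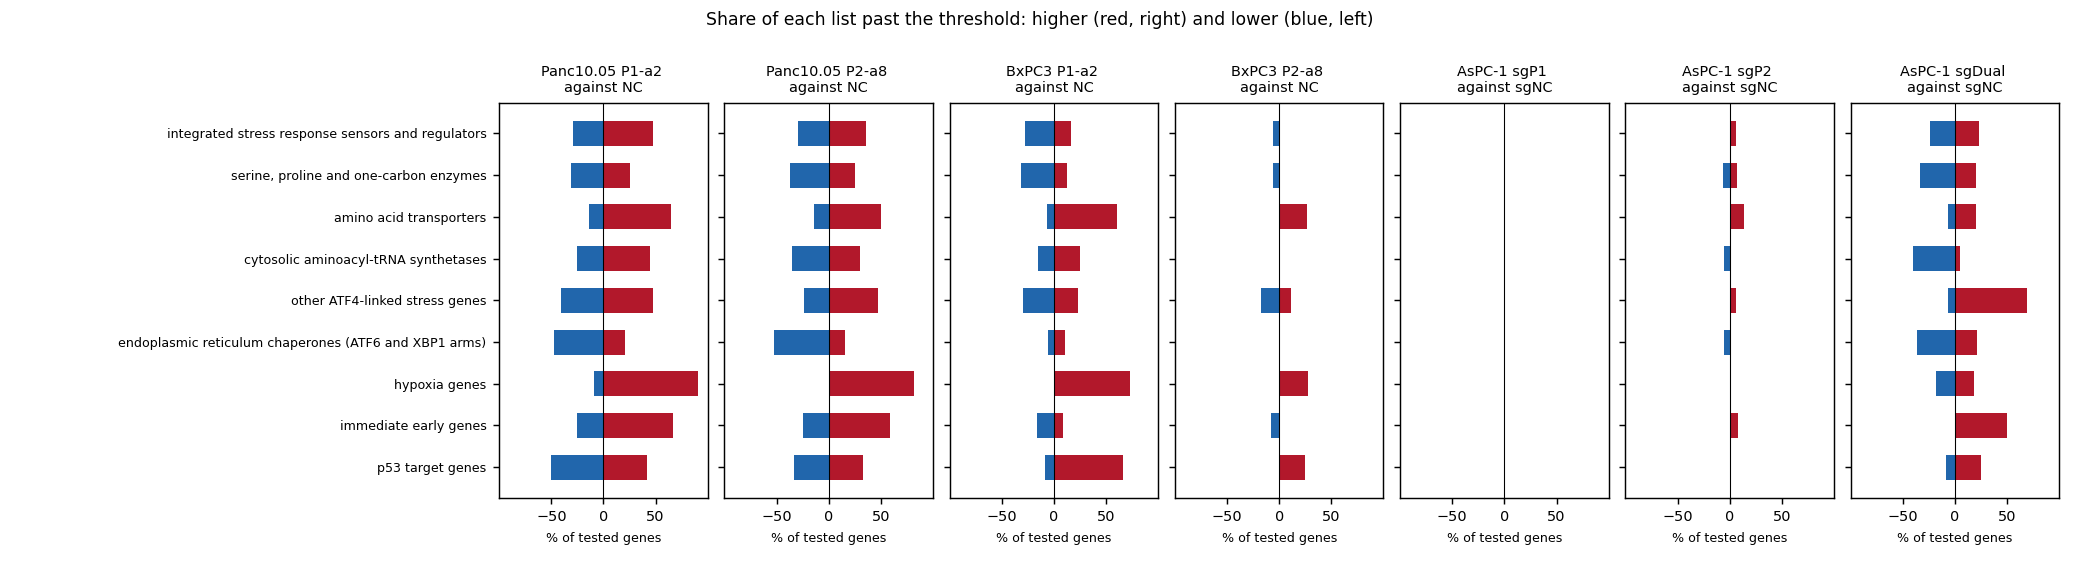
Share of the tested genes of each of 9 lists (rows) that passed the threshold in each comparison with the control group (panels), in percent, higher to the right in red and lower to the left in blue. The list of other ATF4-linked stress genes reaches furthest to the right in sgDual, hypoxia genes in both Panc10.05 groups and in BxPC3 P1-a2, and no bar is drawn for sgP1.

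Other measures of the libraries moved beside the groups. Beside the rises of DDIT3, ATF3 and CHAC1 in sgDual, the share of counts from mitochondrial genes was 9.23% to 9.88% in sgDual and 8.37% to 9.24% in sgNC. The 12 leukocyte, fibroblast and endothelial markers summed to 284 to 308 CPM in sgDual and 169 to 184 in sgNC, nearly all of it LUM, and to 6.62 to 9.16 and 4.56 to 5.91 without LUM, with 1 and 2 of the 12 at 0. Beside the P1-a2 changes, the mitochondrial share was 4.93% to 5.36% against 5.51% to 5.98% in NC of Panc10.05, and 5.70% to 5.73% against 6.17% to 6.29% in NC of BxPC3. With P2-a8 it was 5.48% to 5.52% and 6.25% to 6.42%. The 6 epithelial and ductal markers summed to 5824 to 5888 CPM in NC of Panc10.05, 7611 to 8691 in P1-a2 and 9601 to 10078 in P2-a8, and in BxPC3 to 7720 to 7976, 10287 to 10999 and 8982 to 9157. In AsPC-1 they summed to 14301 to 14593 CPM in sgNC, 8298 to 18031 in sgP1, 10178 to 11675 in sgP2 and 11259 to 15970 in sgDual. For the 12 markers of other cell types, in Panc10.05 the sum was 14.8 to 15 CPM in P1-a2, 14.4 to 14.5 in P2-a8 and 12.3 to 12.4 in NC. In BxPC3 it was 22.4 to 26.3 CPM in P1-a2, 23.8 to 24.5 in P2-a8 and 19.7 in both NC libraries, and without LUM 16.2 to 19.9, 17.5 to 18.4 and 18.3 to 19. The part of these measures in the results was not tested.

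Across the 26 libraries, with each line centred on its own mean log2 level, pairs among 9 of the 10 genes ran from opposed to closely alike; PHGDH was not included, since it could not be tested in AsPC-1. Over the 3 lines together, ASNS and CHAC1 had a Pearson r of 0.78, DDIT3 and ATF3 of 0.77, DDIT4 and TRIB3 of 0.67, and CHAC1 and DDIT3 of 0.64. DDIT4 had an r of 0.02 with DDIT3 and of 0.11 with ATF3, values that pool unlike lines. With DDIT3 its r was 0.97 over the 6 libraries of Panc10.05, 0.50 over the 6 of BxPC3 and -0.66 over the 14 of AsPC-1, and with ATF3 it was 0.96, -0.14 and -0.42 in the same order. ASNS also differed by line, with an r of 0.92 with ATF5 in Panc10.05 and -0.57 in BxPC3, and of -0.44 and 0.86 with PSAT1. Over the 26 libraries PSAT1 was opposed to ATF5 (-0.54) and ATF3 (-0.50). Among 9311 genes ranked by the same measure, the nearest to ATF3 was PPP1R15A (r = 0.930), that to DDIT3 was SH3BGRL2 (0.949), that to ATF5 was SUPT5H (0.919), that to TRIB3 was AUP1 (0.878) and that to DDIT4 was MTX3 (0.871). These values describe libraries that share groups and tables, and they carry no test.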

How the data were processed

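Poly(A) RNA was sequenced from 26 libraries of 3 cell lines with a directional kit, per the labels' protocols. Per the submitters' processing notes, the tools included cutadapt 1.16, STAR 2.7.9a, featureCounts 1.6.3 and DESeq2 1.36.0, on GRCh38; the strand setting and the annotation release are not given in the sources used here. The authors deposited raw counts, 1 table per line. Symbols matched 99.88% to 99.91% of identifiers.

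Per line, low counts were filtered with filterByExpr of edgeR, libraries were scaled by TMM (trimmed mean of M-values), and groups were compared in 1 shared fit by the quasi-likelihood test of edgeR. P-values were adjusted by Benjamini-Hochberg over all genes tested, and calls have an adjusted p under 0.05. SE is the absolute log2 fold change divided by the root of F. CPM carries the TMM scaling. The precision of a value follows from its counts; floors cover counting error only, since reads are not independent molecules. Guides were compared in a fit by guide, and lines by an interaction contrast in a joint fit. The procedure was tested on simulated data with 200 changed genes. Replicate libraries differed by a chi-square per degree of freedom of 5.53 to 26.9, so none was treated as a duplicate.

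The 10 genes, the 9 lists and the tests were chosen with earlier results of these data known, so the lists are no independent support. List genes were named from the 3 with the largest absolute change in a comparison among those called, at a mean of 5 CPM or more and with separate groups. Genes most like a member were ranked by Pearson's r. Genes that overlap a member were named for that reason alone. Coordinates are from GENCODE v29 (GRCh38), numbered from 1. Alternatives were other scalings, no filter, DESeq2 1.42.0, a replicate block, fits of 2 groups, and fits without a library or guide. Software was edgeR 4.0.16 in R 4.3.3, with pandas 2.3.3 and matplotlib 3.10.9 in Python 3.11.15.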

Additional observations from a re-analysis of the deposited data

Results flagged for a closer look

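Differences between Panc10.05 and BxPC3 in the same contrast, tested as an interaction, are listed here because the response of 1 line was not that of the other. For P1-a2 against NC, the log2 fold change in Panc10.05 exceeded that in BxPC3 by 0.69 for CHAC1, 1.21 for DDIT3, 1.38 for DDIT4, 0.84 for TRIB3 and 0.28 for PSAT1. For ATF5 it was lower, at -0.27. For P2-a8 against NC the excess was 0.51 for DDIT3, 0.38 for DDIT4 and 0.81 for TRIB3. For P1-a2 against P2-a8 it was 0.88 for ASNS, 0.69 for DDIT3 and 1.00 for DDIT4. The calls for DDIT3 and TRIB3, and those for DDIT4 in both contrasts with P1-a2, held in every alternative run. The others were lost in at least 1: CHAC1 without Panc10.05 NC replicate 2 (adjusted p = 0.109), ATF5 without BxPC3 P1-a2 replicate 1 (0.138), PSAT1 without BxPC3 NC replicate 1 (0.237), ASNS without BxPC3 P2-a8 replicate 1 (0.101), and DDIT4 for P2-a8 without BxPC3 NC replicate 1 (0.0838). In the groups of 4 libraries, no library of the 10 genes stood apart by Dixon's test.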

How the results depend on the processing

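No called log2 fold change of the 10 genes reversed in any alternative: of the gene-by-alternative values, 2009 kept their side of the threshold, 90 lost it and 25 gained it. The number of the 10 genes called moved by over 1.5 times in these cases. For BxPC3 P2-a8 against NC it was 2, and 4 with a replicate block (1 to 2 without 1 library). For sgP2 against sgNC it was 1, and 0 without guide sgP2D, 0 without guide sgP2G and 0 to 0 without 1 library. For sgDual against sgNC it was 4, and 2 without guide sgDual2 (2 to 4 without 1 library). For sgP2 against sgP1 it was 1, with 2 under the block, 3 without guide sgP1E, 2 without guide sgP1J and 1 to 2 without 1 library. For sgDual against sgP2 it was 5, and 3 without guide sgDual2. Between sgP1J and sgP1E it was 1, with 3 under the block, 0 when only both guides were fitted and 0 to 2 without 1 library. Between sgP2G and sgP2D it was 0, and 1 (ASNS) with no filter or under the block. Between sgDual3 and sgDual2 it was 0, and 1 (PSAT1) under the block. For the differences between lines, it was 6 for P1-a2 (3 to 5 without 1 library), 3 for P2-a8 (5 under the block) and 3 between isoforms (5 under the block).

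The replicate numbers pair nothing by the labels: deviations of same-numbered libraries had correlations of -0.012 to 0.007 in Panc10.05, 0.073 to 0.131 in BxPC3 and 0.077 to 0.339 in AsPC-1, each positive in the last 2 lines but not all over 0.1. ATF3 was the higher in replicate 2 of each BxPC3 group, and the block called its line difference with P1-a2 (0.00144). It also called DDIT3 (0.0181) and SESN2 (0.0233) for BxPC3 P2-a8, and 11 immediate early genes in place of 3 for BxPC3 P1-a2. Counts over all genes moved by over 1.5 times as follows. In sgP1 against sgNC, 45 became 81 with no filter, 242 by DESeq2, 127 with the block, 7 with both groups alone, 262 without guide sgP1E, 1242 without guide sgP1J and 1 to 144 without 1 library (1 without sgNC replicate 2). In sgP2 against sgNC, 581 became 1132 by DESeq2, 972 with the block, 1103 with both groups alone, 322 without sgP2D, 293 without sgP2G and 57 to 466 without 1 library (57 without sgNC replicate 2). In sgDual against sgNC, 6048 became 2775 without sgNC replicate 1. In sgP2 against sgP1, 731 became 1272 by DESeq2, 1204 with the block, 189 with both groups alone, 2764 without sgP1E, 306 without sgP2D, 411 without sgP2G and 324 to 1208 without 1 library. In sgDual against sgP1, 6505 became 4320 without sgDual3. In BxPC3 P2-a8 against NC, 1232 became 1982 with no filter, 2886 with the block and 495 to 927 without 1 library, and between its isoforms 3963 became 5992 with the block and 2538 to 3013 without 1 library. Between guides, 2467 (sgP1J and sgP1E) became 4616 with the block and 871 with both alone, 288 (sgP2G and sgP2D) became 649 with no filter and 778 with the block, and 150 (sgDual3 and sgDual2) became 417 and 558. Causes were not tested. CHAC1 had 24 to 119 counts per library in AsPC-1 and ASNS 45 to 55 in BxPC3.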

Other observations

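DDIT3 and ATF3 were called higher in both Panc10.05 groups, where HNF4A was raised, and in AsPC-1 sgDual, where it was lowered. In BxPC3, where HNF4A was raised as well, neither was called in the shared fit. ATF3 ran from 25.1 to 73.4 CPM within NC of BxPC3, so the lack of a call does not show that ATF3 stayed level there. DDIT3 was called for BxPC3 P2-a8 with a replicate block. In Panc10.05 P1-a2, where HNF4A went from 0.149 to 11.8 CPM, DDIT3 rose by 1.26 and ATF3 by 1.70. In AsPC-1 sgDual, where HNF4A went from 213 to 7.99 CPM, DDIT3 rose by 1.28 and ATF3 by 1.48. In Panc10.05 P2-a8, where HNF4A reached 37.6 CPM, the rises were 0.75 and 0.95. The 2 lines share no control library. TRIB3 rose by 1.27 in Panc10.05 P1-a2 and differed by 0.07 (SE 0.16) in sgDual, and DDIT4 rose by 1.32 in the former and fell by 0.38 in the latter. PPP1R15A rose in both, by 1.00 and by 0.64.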
